A study of Mus musculus with 8 samples.

Results

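The genes described are 7 that mark the proepicardium and the epicardium: the transcription factor genes *Wt1*, *Tbx18* and *Tcf21*, the uroplakin genes *Upk3b* and *Upk1b*, the retinoic acid enzyme gene *Aldh1a2* and the semaphorin gene *Sema3d*. They were chosen by name, with earlier results of these data known. All 7 were found among the 24385 features of the deposited expression table, and 5 of them passed a filter of 1 FPKM (fragments divided by transcript length in kilobases and by the library's mapped total) in the mean over all libraries, as did 10018 features in all. *Tbx18* (mean 0.257 FPKM) and *Sema3d* (mean 0.0863 FPKM) did not pass, so they are described by their values and were not tested in the main model. *Upk3b* passed through its E9.5 libraries alone, since its group means at E8.5 were below 1 FPKM. No other entry of the table overlapped any of the 7 loci.

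The proepicardium is a transient cluster of mesothelial cells at the venous pole of the embryonic heart, beside the septum transversum and the liver bud. Its cells move onto the bare myocardium and spread as a sheet, the epicardium, from which cells later leave by an epithelial to mesenchymal transition to form fibroblasts and mural cells of the coronary vessels. WT1, TBX18 and TCF21 are transcription factors of these cells, uroplakins are membrane proteins of mesothelial and urothelial surfaces, ALDH1A2 makes retinoic acid from retinaldehyde, and SEMA3D is a secreted guidance ligand read by neuropilin and plexin receptors. None of these genes is restricted to the epicardium, since the septum transversum, the splanchnic mesoderm, the intermediate mesoderm and the uterine decidua use several of them too.

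The libraries were made from hearts of C57BL/6 background embryos at E8.5 and E9.5, with 2 libraries in each of 4 groups: E8.5 WT, E8.5 cKO, E9.5 WT and E9.5 cKO. The labels call the controls wild type and give the cKO genotype as *Mesp1*Cre/+; *Dgcr8*-/-, while in the study's own description the controls were Cre-free embryos with *Dgcr8* loxP/loxP and the *Rosa26* mT/mG/+ reporter, and the cKO embryos had *Mesp1* Cre/+ in addition. Every group therefore carried floxed *Dgcr8* alleles and the membrane reporter, and the groups also differed by the Cre allele itself. DGCR8 holds primary microRNA transcripts for cutting by DROSHA, and *Mesp1* Cre acts in the progeny of early mesoderm, which include myocardium, endocardium and proepicardium. Whether embryos were pooled within a library was not given, and p-values measure the spread between these libraries. At E8.5 *Dgcr8* itself was 7.10 and 8.60 FPKM in WT hearts and 1.64 and 4.67 in cKO hearts. At E9.5 it was 3.49 and 3.23 in WT hearts and 1.15 and 1.77 in cKO hearts, so each cKO library was below both controls of its stage. The E8.5 cKO library with 4.67 FPKM, replicate 2, also had the highest decidual marker sum (5177 FPKM, against 12.2 in replicate 1). The part of decidual RNA in its *Dgcr8* value was not tested.

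Depth read from single-fragment steps of the FPKM values lay between 12.69 and 18.75 (in units of 1e+06 fragments) per library, so that 1 FPKM of *Upk3b* stood for about 30 to 44 fragments and the *Sema3d* values for 2 to 27. Markers of tissue outside the heart varied between libraries. Summed FPKM of 8 decidual stroma markers was 477 and 1174 in E8.5 WT and 12.2 and 5177 in E8.5 cKO, against 2.21 to 6.97 at E9.5. A list of 8 uterine natural killer cell markers reached 480 FPKM in E8.5 WT replicate 1 and stayed between 0.532 and 2.44 in the other 7 libraries. E8.5 WT replicate 1 also had the most foregut endoderm markers (85.3 FPKM against 12.4 to 21.2 at E8.5) and somite markers (3.98 against 0.154 to 0.370). At E9.5 the liver gene *Alb*, picked after its values were seen, was 4.48 FPKM in WT replicate 1 and listed at 0 in the other 3 libraries. The sums of its hepatoblast list overlapped between the genotypes, although most other genes of that list were also highest in E9.5 WT replicate 1. Changes of the 7 genes that depended on 1 of these libraries are also given without it, while values of other genes are given over all libraries only.

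Promoter sequences from RefSeq (GRCm38.p6, 250 bases before to 50 bases after the start site) were found for 5 of the 7 genes, all but *Wt1* and *Upk1b*. The 3 tested genes with the lowest cKO values relative to WT at E9.5 are shown, so that a reader can see what lies at their start sites. Capitals mark matches to any of 5 short motifs, searched on both strands: a GATA factor word (AGATAA, also with T as its first or G as its last base), a T-box word (GGTGTG), a TEAD word (GGAATG), the retinoid receptor half-site (AGGTCA) and the TATA box word (TATAAA). The first is *Upk3b* at chr5:136038246-136038545 on the plus strand, the second *Tcf21* at chr10:22820094-22820393 on the minus strand and the third *Aldh1a2* at chr9:71215539-71215838 on the plus strand.
Upk3b: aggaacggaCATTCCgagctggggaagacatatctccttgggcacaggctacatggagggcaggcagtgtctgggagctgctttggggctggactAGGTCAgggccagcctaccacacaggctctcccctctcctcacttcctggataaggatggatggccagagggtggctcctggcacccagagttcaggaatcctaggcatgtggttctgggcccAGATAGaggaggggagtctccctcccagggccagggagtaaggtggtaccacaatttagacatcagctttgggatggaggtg
Tcf21: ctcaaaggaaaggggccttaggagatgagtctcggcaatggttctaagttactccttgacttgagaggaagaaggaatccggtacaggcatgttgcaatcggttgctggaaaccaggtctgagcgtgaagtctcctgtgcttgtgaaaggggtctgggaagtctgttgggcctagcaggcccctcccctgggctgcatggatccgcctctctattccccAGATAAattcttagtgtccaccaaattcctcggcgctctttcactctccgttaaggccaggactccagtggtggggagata
Aldh1a2: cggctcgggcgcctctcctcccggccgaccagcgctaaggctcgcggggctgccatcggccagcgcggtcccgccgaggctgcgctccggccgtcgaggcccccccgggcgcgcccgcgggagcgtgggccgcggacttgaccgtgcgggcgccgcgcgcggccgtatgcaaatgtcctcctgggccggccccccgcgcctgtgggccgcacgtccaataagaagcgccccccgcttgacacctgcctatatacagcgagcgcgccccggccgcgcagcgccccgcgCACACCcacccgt

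With the start site counted as position 0, *Upk3b* held a GATA match at -32 to -27 and *Tcf21* one at -31 to -26. *Upk3b* also held a TEAD match at -241 to -236, on the minus strand, and a retinoid half-site at -155 to -150. The *Aldh1a2* window had 1 T-box match at 37 to 42, on the minus strand, and the windows of *Tbx18* and *Sema3d* had no match to the 5 motifs. Of 32851 promoter windows of this length, 29.8% held a GATA match, 19.1% a T-box match, 14.7% a TEAD match, 16.3% a retinoid half-site and 13.6% a TATA match, so such words are common. GC content was 58.7% in *Upk3b*, 53.3% in *Tcf21* and 78.0% in *Aldh1a2*, with a median of 52.7% over all windows. A match is a run of letters and not a binding site.

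*Upk3b*, a mesothelial uroplakin, was the one tested member called between the stages, in both genotypes. The E8.5 libraries held 0.548 and 0.738 FPKM in WT hearts and 0.628 and 1.29 in cKO hearts, which is 16 to 40 estimated fragments a library. The E9.5 libraries held 15.6 and 11.8 FPKM in WT hearts and 4.77 and 4.86 in cKO hearts. The 4 groups thus fell into 3 levels, with E9.5 WT above E9.5 cKO, both above E8.5, and the E8.5 groups overlapping. Within the libraries its place also moved, from above 0.6% to 6.2% of the tested genes at E8.5 to above 73.5% and 69.5% of them in WT hearts and 51.4% and 55.0% in cKO hearts a day later.

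Between the stages *Upk3b* rose 21.3-fold in WT hearts by the group means (13.7 ± 2.71 against 0.643 ± 0.134 FPKM, SD, n = 2 each). On the log2(FPKM + 1) scale the change was 3.15 (SE 0.26, limma adjusted p = 0.00319). In cKO hearts it rose 5.02-fold, from 0.960 ± 0.469 to 4.81 ± 0.0657 FPKM (SD, n = 2 each), and by 1.59 on the log2 scale (SE 0.26, limma adjusted p = 0.016). The calls among all tested genes were 1.40% higher and 46.7% lower in WT, and 2.05% and 28.5% in cKO, since the median gene was 0.84 lower on the log2 scale in WT and 0.64 lower in cKO. With median-ratio scaling, which removes that shift, the calls were 321 higher and 69 lower in WT, in place of 140 and 4683, and 400 and 77 in cKO, in place of 205 and 2857, and the *Upk3b* change in cKO was 2.12 (adjusted p = 0.0097). The cKO call was lost without either E9.5 cKO library, as were nearly all calls over the tested genes. The *Upk3b* log2 change was 1.60 without replicate 1 and 1.58 without replicate 2.

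**Figure D1:**
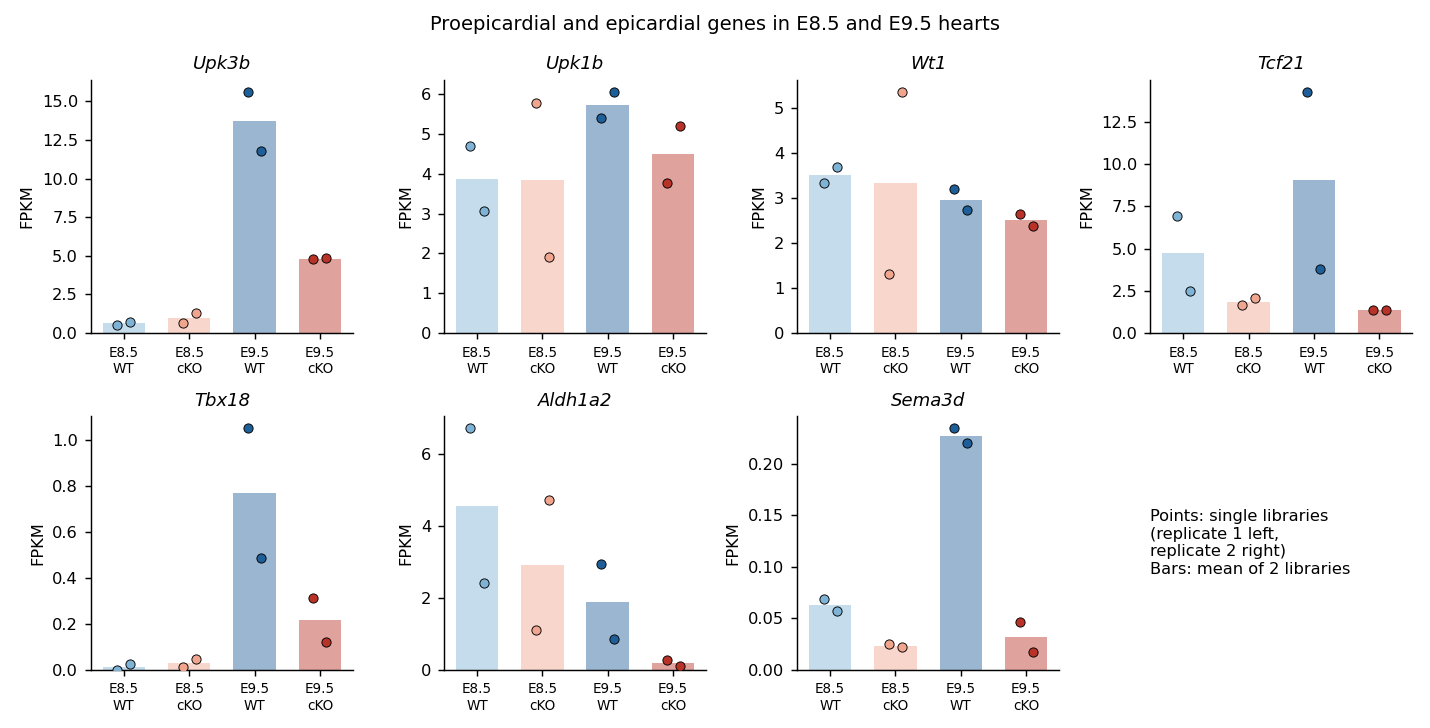
FPKM of the 7 genes on linear axes from 0, with a point for each library, replicate 1 on the left, and a bar for the mean of the 2 libraries of each group. *Upk3b* is between 0.548 and 1.29 FPKM in the 4 E8.5 libraries and between 4.77 and 15.6 at E9.5, and for all 7 genes both E9.5 cKO points lie below both E9.5 WT points, narrowly for *Wt1* and *Upk1b*.

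At E9.5 *Upk3b* was 2.85-fold lower in cKO than in WT hearts by the group means. The log2 change was -1.33 (SE 0.26, interval -1.93 to -0.72), with an unadjusted limma p of 0.000988 and an adjusted p of 0.108, so the gene was not called. It lay 1.26 below the median gene of that comparison on the log2 scale. Over the alternatives the change ranged from -1.52 to -1.14 and the adjusted p from 0.0943 to 0.759. At E8.5 the difference between the genotypes was 0.24 (SE 0.26, adjusted p = 0.728). The test of whether the cKO change differed between the stages gave -1.56 (SE 0.37, unadjusted p = 0.00296, adjusted p = 0.401), which was not called either.

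*Upk1b*, a tetraspanin uroplakin, was present at both stages with a small range. At E8.5 the WT libraries held 4.71 and 3.06 FPKM and the cKO libraries 5.78 and 1.92. At E9.5 the WT libraries held 5.40 and 6.07 FPKM and the cKO libraries 3.78 and 5.20. The E8.5 groups overlapped, and both E9.5 cKO libraries lay just below the E9.5 WT libraries. The cKO change at E9.5 was -0.30 (SE 0.40, interval -1.23 to 0.62, limma adjusted p = 0.791), so a fall or a rise within that interval was not detectable with 2 libraries a group. At E8.5 it was -0.12 (interval -1.04 to 0.81), and the direction turned under median-ratio scaling (0.15) and quantile normalization (0.11). In WT hearts *Upk1b* was 0.48 higher at E9.5 than at E8.5 (limma adjusted p = 0.319). That change was 1.27 under median-ratio scaling and 1.38 under quantile normalization (limma adjusted p = 0.115 and 0.19), and 0.24 without E8.5 WT replicate 2. The 4 other uroplakin genes listed were under the filter, and *Upk2* was listed at 0 in all 8 libraries. *Upk1a*, *Upk3a* and *Upk3bl* reached at most 0.322, 1.10 and 0.260 FPKM.

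*Wt1*, a zinc finger factor of mesothelium, was at 3.34 and 3.70 FPKM in the WT libraries of E8.5 and at 1.30 and 5.36 in the cKO libraries. A day later the WT libraries held 3.19 and 2.73 FPKM and the cKO libraries 2.64 and 2.37. The lowest and the highest values were the pair of E8.5 cKO libraries, and they followed the decidual list, at 12.2 and 5177 FPKM. The decidual genes *Hoxa10* (0.160 and 8.59 FPKM) and *Htra3* (1.19 and 19.4 FPKM), picked after their values were seen, were ordered the same way in these libraries. The part of decidual RNA in the *Wt1* values was not tested. At E9.5, where *Hoxa10* was at most 0.0993 FPKM, the *Wt1* libraries separated by 1.18-fold in the means, and the log2 change was -0.17 (SE 0.42, interval -1.16 to 0.81, limma adjusted p = 0.902). Under median-ratio scaling the E9.5 groups overlapped for *Wt1*. At E8.5 the change was -0.24 (interval -1.22 to 0.74) and ranged from -0.97 to 0.49 when 1 library was left out, so no direction was set there. Between the stages in cKO *Wt1* changed by -0.13 (adjusted p = 0.826), and without E8.5 cKO replicate 1 it was -0.86 (adjusted p = 0.0378), against 0.60 (adjusted p = 0.0951) without replicate 2. Each of these fits has 1 E8.5 cKO library, which is assumed to vary like the other groups.

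*Tcf21*, a basic helix-loop-helix factor needed for epicardial fibroblasts, was at 6.95 and 2.51 FPKM in the WT libraries of E8.5 and at 1.63 and 2.05 in the cKO libraries. A day later the WT libraries held 14.3 and 3.79 FPKM and the cKO libraries 1.38 and 1.33. Both cKO groups lay below their controls, and the WT replicates differed from each other by more than the cKO libraries did. At E9.5 the group means were 9.03 ± 7.41 and 1.36 ± 0.0301 FPKM (SD, n = 2 each), 6.67-fold lower in cKO. The log2 change was -1.86 (SE 0.56, interval -3.14 to -0.58), with an unadjusted limma p of 0.0102 and an adjusted p of 0.174, and the gene was not called. E9.5 WT replicate 1, the library with 4.48 FPKM of *Alb*, set the size of the change, which was -1.03 without it (adjusted p = 0.382) and -2.70 without replicate 2 (adjusted p = 0.196). At E8.5 the change was -0.90 (SE 0.56, adjusted p = 0.602), and it was -0.31 without E8.5 WT replicate 1, the library with the natural killer cell, foregut and somite markers, and -1.49 without replicate 2. The stage change in WT was 0.70 (adjusted p = 0.298) and -0.14 without E9.5 WT replicate 1.

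*Tbx18*, a T-box factor of the proepicardium and sinus horn, was close to undetected at E8.5, with 0 and 0.0231 FPKM in WT and 0.0117 and 0.0464 in cKO. These are 0 to 3 estimated fragments a library, so no fold against E8.5 is given. At E9.5 it was at 1.05 and 0.488 FPKM in WT (71 and 43 fragments) and 0.314 and 0.122 in cKO (23 and 10 fragments). Every E9.5 library was above every E8.5 library, and both E9.5 cKO libraries were below both WT libraries. The ratio of WT to cKO fragments per depth at E9.5 was 3.42 (95% counting interval 2.30 to 5.20). This interval covers counting error only and leaves out the spread between the libraries of a group. In a fit with no filter, *Tbx18* was called higher at E9.5 in WT (log2 change 0.79, limma adjusted p = 0.0302), while in cKO hearts the change was 0.24 (adjusted p = 0.346). In the same fit the cKO change at E9.5 was -0.52 (adjusted p = 0.312). The change was -0.29 without E9.5 WT replicate 1, the library with *Alb*.

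*Aldh1a2*, which encodes the retinaldehyde dehydrogenase RALDH2, was at 6.72 and 2.42 FPKM in the WT libraries of E8.5 and at 1.12 and 4.73 in the cKO libraries. A day later the WT libraries held 2.94 and 0.844 FPKM and the cKO libraries 0.284 and 0.106. At E8.5 the cKO libraries were in the order of the decidual list (12.2 and 5177 FPKM) and the WT libraries were not (477 and 1174 FPKM). The part of decidual RNA in these values was not tested. At E9.5 the means were 1.89 ± 1.48 and 0.195 ± 0.126 FPKM (SD, n = 2 each), 9.69-fold lower in cKO, on 96 and 36 estimated fragments in WT and 10 and 4 in cKO. The ratio of fragments per depth was 9.32 (95% counting interval 5.36 to 17.5). That interval also leaves out the spread between libraries, which was wide in WT. The log2 change was -1.18 (SE 0.58, interval -2.52 to 0.16, limma adjusted p = 0.375), and -0.63 without E9.5 WT replicate 1. In cKO hearts *Aldh1a2* changed by -1.55 from E8.5 to E9.5 on the log2 scale (SE 0.58, unadjusted p = 0.0287, adjusted p = 0.0733). Without E8.5 cKO replicate 1, the E8.5 library with the lowest decidual sum, that change was -2.26 and was called (adjusted p = 0.0324), and without replicate 2 it was -0.83 (adjusted p = 0.291).

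*Sema3d*, the guidance ligand, was the lowest member, at 0.0686 and 0.0573 FPKM in the WT libraries of E8.5 and 0.0248 and 0.0219 in the cKO libraries. A day later the WT libraries held 0.234 and 0.220 FPKM and the cKO libraries 0.0463 and 0.0173. These were 2 to 7 estimated fragments a library at E8.5, 22 and 27 in WT and 5 and 2 in cKO at E9.5. Both cKO libraries were below both WT libraries at each stage. At E9.5 the ratio of WT to cKO fragments per depth was 6.92 (95% counting interval 3.12 to 18.1), and at E8.5 it was 2.64 (interval 0.884 to 9.47). In the fit with no filter the cKO change at E9.5 was -0.25 (limma adjusted p = 0.126), on a scale where the pseudocount of 1 hides most of a change at this level. In that fit WT hearts had a log2 change of 0.21 between the stages (adjusted p = 0.0253), below the 1.5-fold limit for a call. Counting intervals pool the 2 libraries of a group and cover counting error only, not the spread between libraries. Amplified reads are also not independent molecules.

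**Figure D2:**
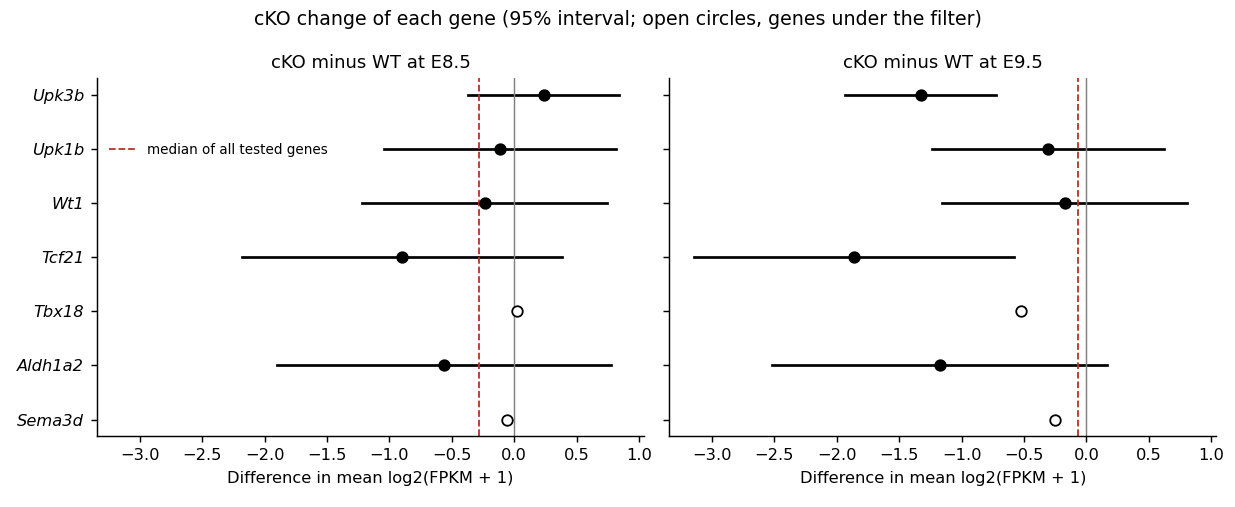
Difference in mean log2(FPKM + 1) between cKO and WT libraries for each gene at E8.5 (left) and E9.5 (right), with the 95% interval of the 4-group model as a line. Open circles mark *Tbx18* and *Sema3d*, which were under the filter, and the dashed line is the median of all tested genes. At E9.5 the intervals of *Upk3b* and *Tcf21* do not reach 0, and at E8.5 every interval drawn does.

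As a set, the 7 genes had no call between the genotypes. At E9.5, 0 of the 5 tested genes were called in limma in either direction, where 0.00998% of all tested genes were called lower and 0.170% higher. At an unadjusted p under 0.05 with a 1.5-fold change, 2 of 5 were lower (*Upk3b* and *Tcf21*) and 0 higher, where 9.99% of all tested genes were lower and 5.08% higher. At E8.5, 0 of 5 were called or passed the unadjusted rule, while of all tested genes 0% were called lower, 0.00998% were called higher and 7.14% passed the unadjusted rule. For the difference of the cKO change between the stages, 0 of 5 were called, 1 of 5 (*Upk3b*) passed the unadjusted rule, and of all tested genes 0.0399% were called and 7.18% passed the unadjusted rule. With 2 libraries a side the smallest two-sided p of an exact permutation test is 0.333.

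For all 7 genes both E9.5 cKO libraries were below both E9.5 WT libraries in FPKM as deposited, which was true of 31.1% of all tested genes. *Tbx18* and *Sema3d* were under the filter, where this was true of 13.8% of the features with a value above 0 in any library. At E8.5 the same held for 2 of 7, *Tcf21* and *Sema3d*, against 40.1% of tested genes. With median-ratio scaling 5 of 7 remained separate at E9.5, without *Wt1* and *Upk1b*, and 24.0% of tested genes did, while at E8.5 1 of 7 was separate, *Sema3d*, against 12.5%. With libraries set to the same sum over loci of at least 300 bp, 6 of 7 were separate at E9.5, without *Upk1b*, against 30.7% of tested genes. After quantile normalization 3 of the 5 tested members were separate (*Upk3b*, *Tcf21* and *Aldh1a2*), against 25.9%. In bulk hearts, fewer cells of a type and less RNA per cell cannot be told apart.

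Ratios within a library do not depend on its scaling. The ratio of *Upk3b* to *Wt1* was 0.164 and 0.200 in WT hearts and 0.481 and 0.241 in cKO hearts of E8.5. In E9.5 hearts it was 4.90 and 4.32 for WT and 1.81 and 2.05 for cKO. The members therefore did not move in proportion: between E9.5 WT and cKO libraries *Upk3b* was 2.11-fold to 2.71-fold lower against *Wt1*. The ratio of *Tcf21* to *Wt1* at E9.5 was 4.47 and 1.39 in WT and 0.522 and 0.562 in cKO. The ratio of *Aldh1a2* to *Wt1* lay between 0.655 and 2.01 at E8.5, while at E9.5 the controls had 0.922 and 0.309 and the cKO hearts 0.108 and 0.0447. The ratio of *Upk1b* to *Wt1* overlapped at E9.5, at 1.69 and 2.22 in WT and 1.43 and 2.19 in cKO.

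**Figure D3:**
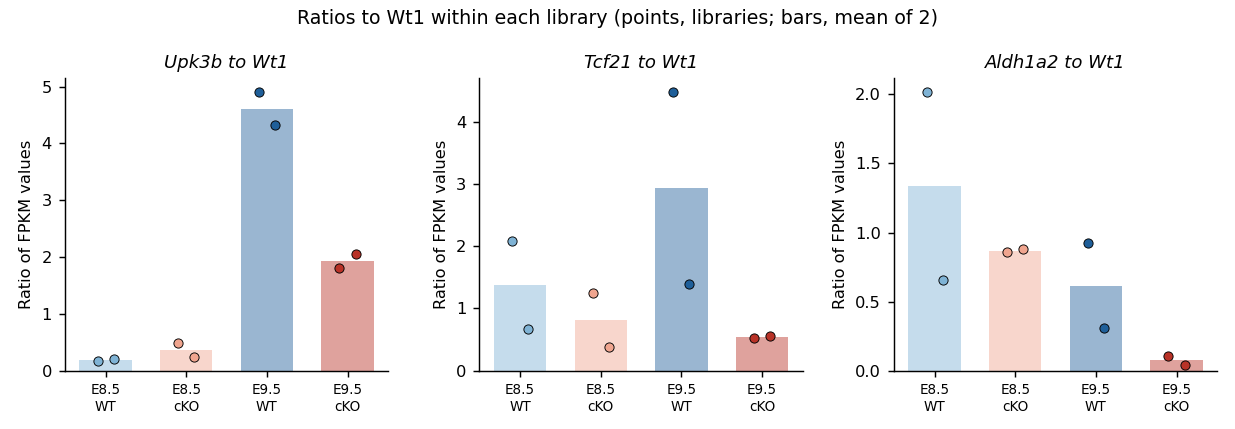
Ratios of FPKM to *Wt1* in the same library for *Upk3b*, *Tcf21* and *Aldh1a2*, on linear axes from 0, with a point for each library and a bar for the mean of 2. In all 3 panels both E9.5 cKO points lie below both E9.5 WT points, and for *Upk3b* every E8.5 ratio is at or below 0.481.

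Lists for the tissues next to the heart were read beside the members. At E9.5 the 6 septum transversum markers summed to 17.2 and 18.3 FPKM in WT and 18.5 and 9.25 in cKO, which overlap. The 7 hepatoblast markers summed to 4079 and 2623 FPKM in WT and 1909 and 3567 in cKO, which overlap too. At E9.5 *Alb* was above 0 in WT replicate 1 alone. *Afp*, *Ttr*, *Hnf4a*, *Apoa2* and *Serpina1b* (59.3 FPKM against 9.85 to 17.5), though not *Prox1*, were also highest in E9.5 WT replicate 1. That library also had the most *Lhx2* (0.811 FPKM, against 0.0245 in WT replicate 2) and *Hlx* (2.39 against 0.102) and more *Gata4* than WT replicate 2 (7.80 against 2.28), genes of liver bud mesenchyme picked after their values were seen, while *Alcam* (4.31 against 10.9), *Rspo3* (1.68 against 4.62) and *Hgf* (0.269 against 0.355) of the same list were lower in it. It held the most of every member but *Upk1b* among the E9.5 libraries. Liver bud RNA as a part of the member values was not tested, and without that library the E9.5 changes were -1.14 for *Upk3b*, -1.03 for *Tcf21* and -0.63 for *Aldh1a2*. The 8 splanchnic mesoderm markers summed to 45.8 and 20.1 FPKM in WT and 48.7 and 51.2 in cKO, with most of each E9.5 cKO sum from *Wnt2* (45.5 and 44.8 FPKM), set apart after its values were seen. Without *Wnt2* the other 7 summed to 8.88 and 10.4 FPKM in WT and 3.13 and 6.34 in cKO, below the controls. The 6 intermediate mesoderm markers, a tissue with *Wt1*, summed to between 2.96 and 9.36 FPKM at E8.5 and 0.600 and 1.15 at E9.5, with *Pax2* at 0 in every library. Somite markers summed to 0.154 to 3.98 FPKM, with *Myf5* and *Uncx* at 0 in every library, limb bud and body wall markers to 6.35 to 20.2, and neural tube markers to 0.890 to 3.18, with *Olig2* at 0 in every library. Foregut endoderm markers summed to 12.0 to 85.3, endothelial markers to 38.6 to 66.1, yolk sac endoderm markers to 489 to 4967 and erythroid markers to 7779 to 39580 FPKM. The 9 cardiomyocyte markers, the defining genes of the labelled tissue, summed to 23470 to 71660 FPKM, with none at 0. At E9.5 that sum was 51930 and 51070 FPKM in WT and 69860 and 71660 in cKO, above both controls, and most of it came from *Actc1* and *Myl7*. These genes, *Tnni1*, *Nkx2-5* and *Ryr2* were each higher in both cKO libraries than in both controls. *Myh6* was lower in both cKO libraries (424 and 567 FPKM against 916 and 777), and *Tnnt2*, *Myh7* and *Ttn* overlapped. The part of these shifts in the member values was not tested.

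**Figure D4:**
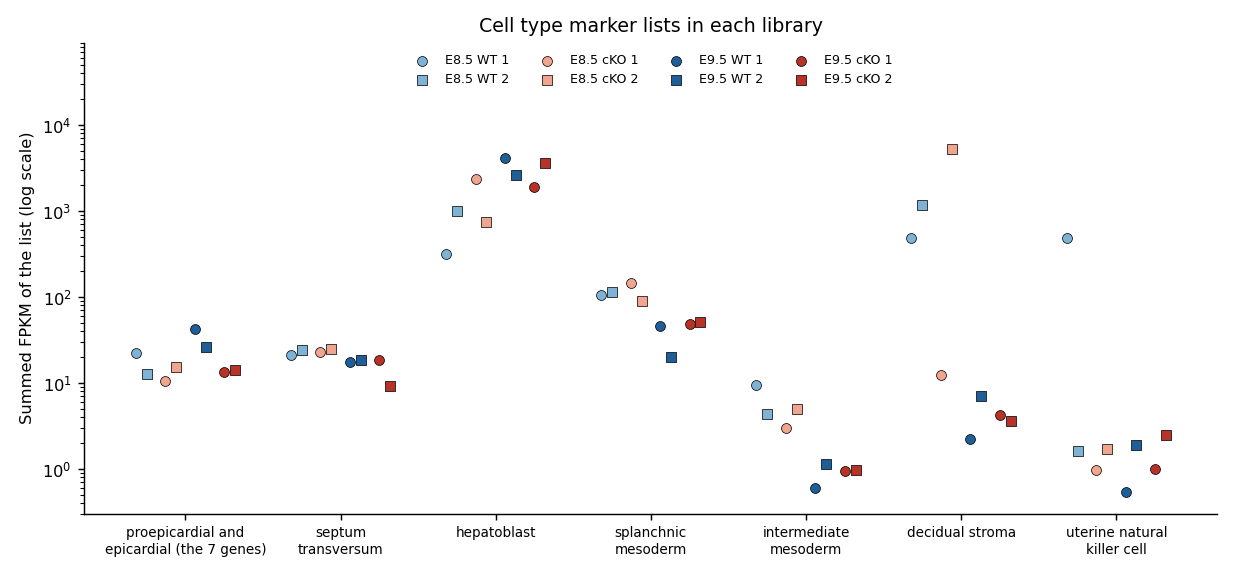
Summed FPKM of 7 marker lists in each library on a log axis, circles for replicate 1 and squares for replicate 2. The decidual list spans 12.2 to 5177 FPKM over the E8.5 libraries and 2.21 to 6.97 at E9.5, while the septum transversum list stays between 9.25 and 24.6 FPKM.

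Among 25 other epicardial, mesothelial and proepicardial genes, 24 were in the table and 15 were tested. At E9.5 none was called between the genotypes, 3 were higher and 4 lower by the unadjusted rule (5.08% and 9.99% of all tested genes), and the list median was 0.10 against -0.07 for all tested genes. The 2 with the largest change went opposite ways. *Krt19*, a keratin of simple epithelia, was at 46.4 and 46.1 FPKM in WT and 690 and 329 in cKO (log2 change 3.34, adjusted p = 0.0648), and it was called under median-ratio scaling but not the other 2 scalings. *Igfbp5*, a binding protein for insulin-like growth factors, was at 62.6 and 30.7 FPKM in WT and 10.6 and 9.52 in cKO (-2.02, adjusted p = 0.089). Of the 15 tested genes 4 had both E9.5 cKO libraries below both WT libraries and 4 had both above, where 31.1% of all tested genes were below and 21.0% above. Of the 9 list members under the filter, 7 had both E9.5 cKO libraries below both WT libraries, as did 13.8% of the features under the filter with a value above 0 in any library. Some of the 7 were near the floor, such as *Rspo1* (0.119 and 0.0305 FPKM in WT) and *Msln* (0.0675 and 0.0520), both at 0 in cKO. The share of 13.8% includes features such as *Fgf16*, at 0 in every E9.5 library, that cannot separate. Singled out after its values were seen, *Lhx9*, a LIM homeobox gene of proepicardium and septum transversum, was listed at 0 in all 4 E8.5 libraries and stood at E9.5 at 1.32 and 0.506 FPKM for WT and 0.0621 and 0.0251 for cKO. *Bnc1*, a mesothelial zinc finger gene chosen likewise, had 0.679 and 0.412 FPKM in the E9.5 controls and 0.0263 and 0.0735 in the cKO hearts of that stage. Between the stages 1.40% of all tested genes were called higher and 46.7% lower in WT, and 2.05% and 28.5% in cKO. Of this list *Ezr* and *Mab21l2* were called higher and *Gata5*, *Krt8*, *Krt18* and *Podxl* lower in WT, and *Cdh3* and *Krt19* higher in cKO. These higher calls held under median-ratio scaling, and none of the 4 lower ones did. Quantile normalization lost the *Krt19* call, and setting the same sum over long loci lost those of *Ezr* and *Cdh3*.

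The mesenchymal transition list held 19 genes, of which 16 were tested. At E9.5 none was called between the genotypes, and 13 of 16 were below the median gene, with a list median of -0.53. By the unadjusted rule 0 were higher and 4 lower, where 5.08% and 9.99% of all tested genes were. The largest changes were those of *Col3a1*, a fibrillar collagen, at 40.6 and 36.8 FPKM in WT and 5.70 and 7.34 in cKO (-2.41, adjusted p = 0.0796), and *Snai1*, a repressor of epithelial genes, at 6.44 in both WT libraries and 1.53 and 1.54 in cKO (-1.55, adjusted p = 0.306). Calls between the stages over all tested genes were 1.40% higher and 46.7% lower in WT, and 2.05% and 28.5% in cKO. Of this list *Vim*, *Col1a1* and *Col3a1* were called higher at E9.5 in both genotypes and *Fn1* in cKO (not with the same sum over long loci), while *Pdgfra* was called lower in both and *Zeb1* in WT. These rises were called under median-ratio scaling too, as was the *Pdgfra* fall in cKO (not with quantile normalization), and the falls of *Pdgfra* and *Zeb1* in WT were not.

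Of 20 genes of retinoic acid synthesis, breakdown, transport and reception, 15 were tested. At E9.5 none was called between the genotypes, and the list median was -0.06. By the unadjusted rule 2 were higher and 1 lower, where 5.08% and 9.99% of all tested genes were. *Crabp2*, a carrier of retinoic acid to its receptors, was at 38.7 and 22.2 FPKM in WT and 5.99 and 10.1 in cKO (-1.78, adjusted p = 0.136). *Cyp26a1*, which breaks retinoic acid down, was at 0.123 and 0.725 FPKM in WT and 2.86 and 3.84 in cKO (1.64, adjusted p = 0.089), and it was called under median-ratio scaling but not the other 2 scalings. So the synthesis gene *Aldh1a2* and the breakdown gene *Cyp26a1* stood on opposite sides of the controls at E9.5, with no call for either in the FPKM as deposited. Between the stages 46.7% of all tested genes were called lower in WT and 28.5% in cKO. The lower calls of this list included *Cyp26a1*, *Rdh10*, *Rarb*, *Rxra* and *Rxrg* in WT and *Cyp26a1*, *Rdh10*, *Crabp2* and *Rxrg* in cKO. Only *Cyp26a1* in WT stayed called under median-ratio scaling.

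**Figure D5:**
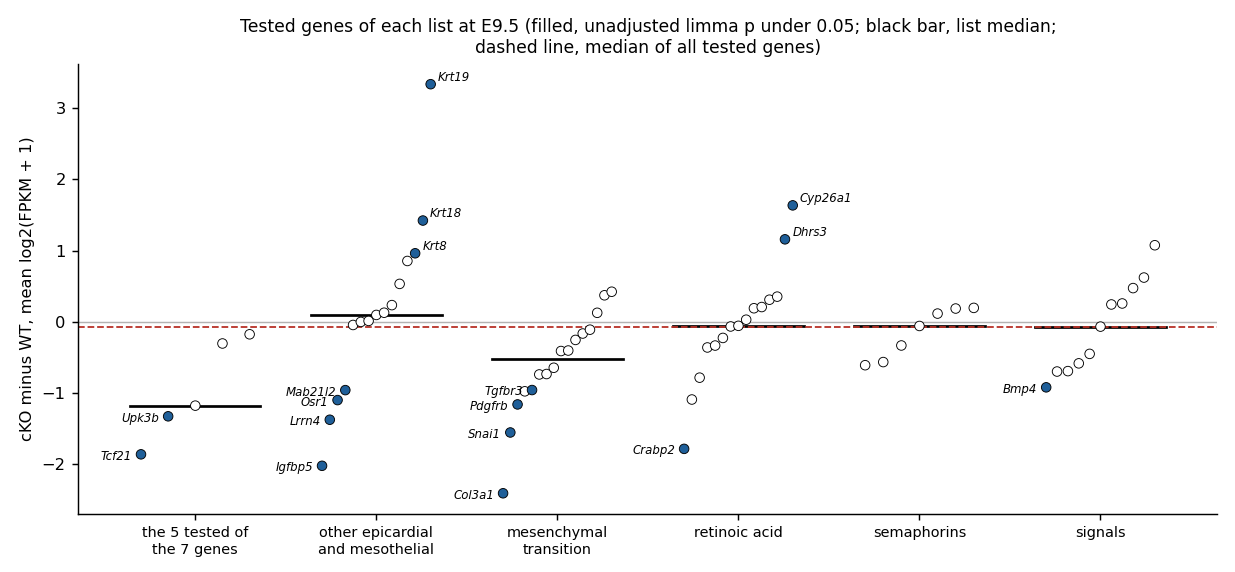
Change between cKO and WT libraries at E9.5, in mean log2(FPKM + 1), for every tested gene of 6 lists, with filled points and names for an unadjusted limma p under 0.05, a black bar for the list median and a dashed line for the median of all tested genes. The tested members and the mesenchymal transition list have medians of -1.18 and -0.53, and the other 4 lists lie between -0.07 and 0.10.

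The remaining lists held no call between the genotypes. Of all tested genes 9.99% were lower and 5.08% higher by the unadjusted rule at E9.5. Between the stages 46.7% were called lower and 1.40% higher in WT, and 28.5% and 2.05% in cKO. Of 13 class 3 semaphorins and receptors 7 were tested, with none past the unadjusted rule at E9.5, and the largest changes were *Sema3a* (-0.61, adjusted p = 0.517) and the receptor gene *Nrp2* (-0.57, adjusted p = 0.544). Between the stages *Sema3a* was called lower in both genotypes and *Plxna4* in WT, none of them under median-ratio scaling. Of 5 other cardiac T-box genes 3 were tested and 1 was lower by the unadjusted rule at E9.5, *Tbx3* (-1.08, adjusted p = 0.23), with *Tbx20* next (-0.29). *Tbx20* was called lower between the stages in both genotypes, though not under median-ratio scaling. Of 9 basic helix-loop-helix relatives of *Tcf21* 2 were tested, *Hand1* (-0.19) and *Hand2* (-0.15), with no call in any of the 4 comparisons, though with the same sum over long loci *Hand2* was called lower between the stages in both genotypes and *Hand1* in cKO. Of 19 signals between myocardium and epicardium 11 were tested, with 1 lower by the unadjusted rule at E9.5. The largest changes were those of *Epor*, the erythropoietin receptor gene (1.08, adjusted p = 0.374), and *Bmp4* (-0.92, adjusted p = 0.247). *Igf2* and *Cxcl12* were called higher at E9.5 in both genotypes, under median-ratio scaling too, but quantile normalization left the *Igf2* call in WT and the *Cxcl12* call in cKO alone. The genes *Vcam1*, *Fgfr1*, *Fgfr2*, *Igf1r*, *Smo* and *Epor* were called lower in WT, none of them under median-ratio scaling.

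The genes whose pattern over the 8 libraries was most like each tested member were sought among 5767 or 5768 genes whose mean reached 5 FPKM, on log2 values less the library median. For *Upk3b* these were *Rpl37rt* (Pearson r = 0.986), *Calr* (0.985) and *Igf2* (0.983), for *Upk1b* *Cd34* (0.981), *Nnt* (0.979) and *Cep89* (0.976), and for *Tcf21* *Hcfc1* (0.978), *Lmo4* (0.951) and *Snrpf* (0.950). For *Wt1* they were *Safb2* (0.928), *Pam* (0.921) and *Yeats4* (0.919), and for *Aldh1a2* *Rhoj* (0.935), *Marcks* (0.932) and *Tes* (0.903). Among the members themselves r ran from -0.34, for *Upk1b* and *Aldh1a2*, to 0.83, for *Upk3b* and *Upk1b*. These are descriptions over 8 libraries that share stage, genotype and library composition, and the best matches were picked from all genes compared. The subtracted medians were 7.62 to 9.90 FPKM at E8.5 and 3.85 to 4.50 at E9.5, so every pattern shares that stage step. In FPKM *Rpl37rt* did not rise, at 9.13 to 12.1 at E8.5 and 7.53 to 11.7 at E9.5.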

How the data were processed

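RNA from whole hearts was sequenced in 8 libraries, 2 for each of 4 groups, and groups were taken from the sample labels. The authors extracted total RNA with Trizol, mapped reads with BWA to mm9 and deposited FPKM values, 1 column per library. For the cDNA the labels name a SMARTer Ultra Low kit, while the study's methods name the Smart-seq2 protocol. The program behind the FPKM table is not given in the sources used here. Start positions in the table matched GRCm38, so coordinates are from the table, on that build and counted from 1. Of 8 per-sample columns 0 were left unused. Its 24930 entries were reduced to 1 per symbol, the one of highest mean where a symbol recurred (285 symbols), while 27 entries with date-like symbols were told apart by locus.

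Genes whose mean over the libraries reached 1 FPKM entered limma 3.58.1 (R 4.3.3) as log2(FPKM + 1), in 1 model of the 4 groups with a mean-variance trend, two-sided, with Benjamini-Hochberg adjustment over 10018 genes. A pseudocount of 1 understates changes of low genes. Calls required a 1.5-fold change besides an adjusted p below 0.05. Log2 changes refer to this scale and folds to group means of FPKM. Depth was estimated from FPKM multiplied by the length of genes with 1 annotated transcript, whose low values cluster at 1 fragment, and fragments of a member from its longest transcript. The procedure was tested on simulated data.

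Members and lists were chosen with earlier results of these data known. Library values of the 7 members are given for every group, while their changes are printed for some comparisons only. Of other lists the called genes are named, or, where none was called, the 2 tested genes with the largest absolute change between cKO and WT at E9.5, and other genes, such as single marker genes, were picked after their values were seen. 1 called list gene is not reported here. The alternatives were another pseudocount, 2 other filters, 3 scalings, no trend, only the libraries compared, a replicate block and leaving out each library.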

Additional observations from a re-analysis of the deposited data

How the results depend on the processing

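The rise of *Upk3b* between the stages in WT was called in all 14 alternatives, with log2 changes of 2.96 to 4.21 and limma adjusted p from 0.00144 to 0.0398. No alternative called a member between the genotypes or in the interaction, where few genes of any kind were called. For cKO against WT at E9.5, 0 of 10018 tested genes were called with only the 4 libraries compared or with the replicate block. Median-ratio scaling called 54 higher and 2 lower there. For the interaction, quantile normalization and the replicate block called 0. The number of members called between the stages in WT went from 1 to 2 with no filter (adding *Tbx18*) and to 2 with a replicate block (adding *Aldh1a2*, adjusted p = 0.0497). In cKO it went from 1 to 2 with a pseudocount of 0.1, with only the 4 libraries compared and with the replicate block (each adding *Aldh1a2*). Without either E9.5 cKO library the *Upk3b* call was lost, as were nearly all calls over the tested genes. Leaving out E8.5 cKO replicate 1 enlarged the falls of *Aldh1a2* and *Wt1*, as given above.

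Directions that no test had called turned under scaling. Under median-ratio scaling and quantile normalization, *Wt1* had 0.056 and 0.007 for cKO against WT at E8.5, 0.56 and 0.70 between the stages in WT, 0.41 and 0.54 in cKO and -0.15 and -0.16 for the interaction, *Upk1b* had 0.15 and 0.11 at E8.5, and *Tcf21* had 0.20 and 0.32 between the stages in cKO. Leaving out 1 library gave ranges across 0 for *Wt1* (-0.97 to 0.49 at E8.5, -0.86 to 0.60 between the stages in cKO, -0.67 to 0.80 for the interaction), *Upk3b* at E8.5 (-0.011 to 0.483), *Upk1b* (-0.72 to 0.49 at E8.5, -0.32 to 0.90 between the stages in cKO, -0.80 to 0.42 for the interaction), *Aldh1a2* (-1.28 to 0.16 at E8.5, -1.33 to 0.10 for the interaction) and *Tcf21* between the stages in WT (-0.14 to 1.53). The cause was not tested. Where leaving out a library left 1 in its group, that library was assumed to vary like the other groups.

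Equal replicate numbers did not mark paired libraries, with correlations of deviations between -0.12 and 0.02. With the crossed pairing in WT, chosen after seeing the data, 1 member was called, *Upk3b*. The filter of a mean of at least 3 FPKM left out *Aldh1a2*. At 2 libraries a group and 2 to 7 fragments at E8.5, *Sema3d* is at the limit of depth.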
